A study of Mus musculus with 18 samples.

Results

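The genes described here code for the enzymes and transporters of glycolysis, the pentose phosphate pathway and the tricarboxylic acid (TCA) cycle. The 43 members came from a list of gene symbols, and a gene of the deposited table of normalized counts was taken where any of the symbols in its Symbol field was on that list. All 43 symbols were found, among 62197 genes in the table, and all 43 were among the 17875 genes tested. They fall into glucose transport (3 genes), upper glycolysis and its regulators (12), lower glycolysis (5), lactate formation and transport (4), pyruvate dehydrogenase and its kinases (3), the pentose phosphate pathway (5) and the TCA cycle with related dehydrogenases (11).

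Glycolysis splits glucose into pyruvate, which is either reduced to lactate and exported or oxidized by pyruvate dehydrogenase to feed the TCA cycle in mitochondria. The pentose phosphate pathway branches off at glucose 6-phosphate and yields NADPH and ribose 5-phosphate. Dendritic cells are known to raise glucose uptake, glycolytic flux and lactate output after stimulation through Toll-like receptors.

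RNA was sequenced from mouse bone marrow-derived dendritic cells, grown for 10 days with GM-CSF from J558 supernatant, in 6 conditions of 3 libraries each. WT stands for control mice and KO for mice in which Itgax-cre deletes a conditional Pla2g4a allele, which encodes the phospholipase cPLA2, so the deletion is limited to cells that express, or descend from cells that expressed, CD11c. Cells of each genotype were either left nonconfined and lysed directly at the end of culture, held under a ceiling of 3 µm and collected after 4 h, or exposed to LPS at 100 ng/ml for 30 min, washed and collected the next day. Confined and LPS cells thus differed from nonconfined cells in handling time as well as in treatment. Marrow donors were 6 to 8 weeks old and of either sex, controls were littermates or age-matched, and the age and sex behind each library were not given. This culture also yields granulocytes and macrophages, which the protocol is meant to remove by their adhesion, with the semiadherent cells kept. The protocol text of all 18 libraries mentions LPS, while titles and treatment fields name it for the 6 LPS libraries only. Libraries came from 2 kits (TruSeq Stranded mRNA and Illumina Stranded mRNA Prep Ligation), and which library came from which was not stated. The study calls these samples biological replicates and speaks in general of biologically independent experiments, but whether those of a condition came from separate cultures or animals is not given for them, so the p-values measure only the spread between these samples.

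Pla2g4a (identifier GSMG0002495) checks the genotype labels. Its normalized counts were 697, 686 and 770 in nonconfined WT and 548, 542 and 533 in nonconfined KO libraries. Under confinement they were 1369, 1430 and 1321 in confined WT against 923, 871 and 920 in confined KO libraries. The log2 fold change of KO against WT was -0.41 (SE 0.06, adjusted p = 0.00019) without confinement and -0.60 (SE 0.06, adjusted p = 3.81e-08) with it, so reads of the gene fell but did not vanish. The libraries labelled LPS WT held 1005, 969 and 967 counts and those labelled LPS KO 1065, 1032 and 1028, with a log2 difference of 0.09 (adjusted p = 1) between the labels. Ddx3y, on the Y chromosome, read 3, 0 and 2 in nonconfined WT and 0, 1.7 and 2.4 in confined WT libraries, against 949, 981 and 874 in nonconfined KO and 1036, 920.2 and 948 in confined KO libraries. Xist, the X-inactivation transcript of female cells, was found in every library, with 27953, 33681 and 30681 counts in nonconfined WT and 12153, 19081 and 14328 in nonconfined KO libraries, so Y-linked and Xist reads occurred together in the KO libraries. Outside the LPS libraries, genotype and donor sex cannot be told apart, which also bears on the X-linked members Pgk1, Pdk3, Pdha1 and G6pdx. In libraries labelled LPS WT, Ddx3y read 1271, 0 and 662, and in those labelled LPS KO 2.1, 1476 and 783. The libraries labelled LPS KO thus do not hold fewer Pla2g4a counts than those labelled LPS WT (all 3 hold slightly more), and each label covers a library with 0 or 2.1 Ddx3y counts and a library (1271 and 1476) above all libraries without LPS. The LPS libraries are therefore averaged over both labels, and results on them are also given without the 2 libraries that hold 0 or 2.1 Ddx3y counts (replicate 2 labelled WT and replicate 1 labelled KO).

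Dendritic cell markers were present in every library, with 10 of 10 genes detected, Cd74 the most abundant and none at 0. Their summed normalized counts were 446806, 421433 and 426586 in nonconfined WT, 528018, 495991 and 515487 in nonconfined KO, 414096, 384829.7 and 397489.9 in confined WT and 364846, 351182 and 363999.8 in confined KO libraries. Libraries labelled LPS WT held 640573, 556100.0 and 588003 such counts and those labelled LPS KO 560854, 629074 and 604868. Neutrophil markers (9 of 9 detected, S100a9 the most abundant, none at 0 throughout) were also plentiful. Their sums were 238799, 243888 and 242238 in nonconfined WT, 369633, 332300.0 and 357470.4 in nonconfined KO, 154033, 146822 and 144607 in confined WT and 333094, 346079 and 330068 in confined KO libraries. Libraries labelled LPS WT held 308839, 290094 and 292202 and those labelled LPS KO 276728, 312382 and 294401. Eosinophil markers (7 of 7, Prg2 the most abundant) summed to 31219, 31041 and 30927 in nonconfined WT, 76022, 70795 and 72873 in nonconfined KO, 8963, 8391 and 8294 in confined WT and 21719, 21294 and 22118 in confined KO libraries. For them, libraries labelled LPS WT read 44134, 25686 and 35304 and those labelled LPS KO 25614, 44123 and 35929.7. In bulk RNA, fewer cells of a type and less RNA per cell cannot be told apart.

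Mast cell and basophil markers (6 of 6, Cpa3 the most abundant) summed to 8988, 9052 and 9157 in nonconfined WT, 13879, 13254 and 13398 in nonconfined KO, 3454, 3301 and 3423 in confined WT and 6132, 5893 and 6137 in confined KO libraries. The label LPS WT went with 9122, 8416 and 9034 and the label LPS KO with 8499.5, 9529 and 9289. The sums of macrophage markers (8 of 8, Csf1r the most abundant) varied less, at 56758, 54793 and 55411 in nonconfined WT, 59072, 63651 and 61347 in nonconfined KO, 53746, 52319.6 and 53092 in confined WT and 58960.4, 53918 and 57102 in confined KO libraries. They read 52088, 43912 and 47458 in libraries labelled LPS WT and 43059, 49862 and 47237 in those labelled LPS KO. Single macrophage markers moved in both directions. With confinement in WT cells the mean of C1qa went from 389 to 211 and that of Mrc1 from 3877 to 4328. In confined cells Fcgr1 averaged 3293 in WT and 1424 in KO, and Mrc1 4328 and 6494. Markers of dividing cells (5 of 5, Top2a the most abundant) were highest without confinement, at 31602, 32916 and 32836 in nonconfined WT, 24051, 25532 and 24748 in nonconfined KO, 19475, 20632 and 20152 in confined WT and 17912, 18983 and 18159.5 in confined KO libraries. In libraries labelled LPS WT they came to 14464, 17203 and 15635, and in those labelled LPS KO to 16791, 12880.3 and 14946. By the same test as the members, confinement in WT cells lowered 9 of 9 neutrophil, 5 of 7 eosinophil, 6 of 6 mast cell and 7 of 10 dendritic cell markers, and in KO cells 4, 6, 6 and 10 of them passed as lower. Ccr7, Irf4 and the eosinophil marker Ccr3 went the other way in WT cells and passed as higher. In confined cells, 9 of 9 neutrophil, 5 of 7 eosinophil and 4 of 6 mast cell markers passed as higher in KO than WT, while 4 of 10 dendritic cell markers (Ccr7, Irf4, Batf3 and Zbtb46) and 2 eosinophil markers (Ccr3 and Siglecf) passed as lower. After LPS, 8 of 10 dendritic cell markers passed as higher, and 6 of 7 eosinophil, 6 of 8 macrophage and 4 of 5 dividing cell markers as lower, with neutrophil markers split into 4 higher and 4 lower. For eosinophil markers this depends on averaging both nonconfined genotypes. Prg2 averaged 17276 in nonconfined WT and 39761 in nonconfined KO libraries, against 19712 and 19668 under the labels LPS WT and LPS KO. Epx ran the same way (7005 and 17646 against 8074 and 7982), while Siglecf (1402 and 943 against 950 and 959) did not. The counts for confinement and for confined KO against WT leave out macrophage and dividing cell markers. These marker lists moved with the member genes described next, and their part in those results was not tested.

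Confinement of WT cells raised 16 of 43 members and lowered 16 (28.2% and 28.4% of all genes tested passed the test in these directions), so the pathways did not move as a block. Among members with an absolute log2 fold change above 1, 5 were higher and 1 lower, where 11.4% and 7.62% of all genes passed both thresholds. The 5 were the glycolytic activator Pfkfb3, the glucose transporters Slc2a6 and Slc2a1, the hexokinase Hk2 and the lactate exporter Slc16a3, and the 1 was the TCA enzyme Fh1. Confinement of KO cells raised 13 members and lowered 9 (background 22.8% and 23.4%), with Pgd and Slc16a3 above 1 and none below -1 (background 6.43% and 5.53%). The median log2 change of the members was -0.052 in WT and -0.037 in KO cells, against -0.005 and 0.01 over all genes tested. With all libraries brought to the same total, the WT split became 10 higher and 23 lower, and the median of all genes moved to -0.231 in WT and -0.025 in KO cells. WT values then lay lower (Pfkl -0.38 in place of -0.155), which leaves fewer members above 1 and more below -1. None of the called directions flipped in either genotype under that scaling, but in WT cells 6 calls were lost and 7 were gained, all 7 lower (Pfkl, Eno1, Ldha, Pdha1, Ogdh, Sucla2 and Mdh2). The 2 confinement comparisons have separate controls, but each shares its libraries with the comparisons of genotype.

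The response to confinement differed between genotypes for 15 members: in KO cells it was more positive for 9 (10.2% of all genes) and more negative for 6 (15.6%). Past an absolute difference of 1 stood 3 members, all more negative in KO cells (background 6.56%, and 1.11% in the other direction): Pfkfb3, Slc2a6 and Hk2. The 9 were Idh1, Rpia, Aco1, Tkt, G6pdx, Idh3a, Pgd, Fh1 and Ogdh, of which 4 belong to the pentose phosphate pathway and 5 to the TCA group. The median difference was 0.108 over the members and 0.051 over all genes; scaled to the same total per library, 23 were more positive and 5 more negative (Slc16a1 no longer passed), with an all-gene median of 0.238. Under TMM scaling the counts were 5 and 6, and Fh1, Ogdh, Pgd and Idh3a no longer passed.

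Between nonconfined KO and WT cells few members differed: 2 were higher (4.78% of all genes) and 5 lower (4.11%), with a median of -0.023 (-0.002 over all genes). Higher were the hexokinase Hk3, at 0.21 (SE 0.05, adjusted p = 0.0125), and transaldolase Taldo1, at 0.30 (SE 0.08, adjusted p = 0.0232). Lower were Slc2a6 at -0.28 (SE 0.05, adjusted p = 0.00132), Fh1 at -0.29 (SE 0.05, adjusted p = 0.000574), Ogdh at -0.15 (adjusted p = 0.0177), Idh3a at -0.20 (adjusted p = 0.0448) and Pdha1 at -0.17 (adjusted p = 0.0464). The KO libraries lay apart from the WT libraries for each of these 7 genes. The test picked these genes on the same libraries, so this adds no support. The share of all genes separated in this way was not counted. Several calls rested on 1 library, since without nonconfined WT replicate 2 (Hk3 5833, Taldo1 14286) or without KO replicate 3 (Hk3 7148, Taldo1 18486) 0 members were higher. Without WT replicate 1 or 3 or KO replicate 3, 2 of the 5 lower members were left. TMM scaling lost Idh3a and Pdha1, and scaling to the same total added Cs and Aco1 as lower. Cell type markers also differed between these libraries. Means in nonconfined WT and KO were 17276 and 39761 for Prg2, 545 and 1101 for Ly6g, and 3961 and 2573 for Mki67. Their part in the member calls was not tested.

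In confined cells more members differed between KO and WT: 15 members were higher in KO (18.8% of all genes) and 9 lower (20.6%). The 3 with an absolute log2 fold change above 1 were all lower in KO, namely Pfkfb3, Slc2a6 and Hk2 (background 7.31% lower and 2.79% higher). The 15 higher members included all 5 of the pentose phosphate pathway, and the median was 0.03 over members and 0.041 over all genes. With every library scaled to the same total, 24 members were higher and 7 lower, the median of all genes was 0.194, and no called member changed sign. Pfkp and Slc2a1 lost their calls, and Aldoa, Aldoc, Pgam1, Pdk1, Idh3a, Ogdh, Sucla2, Mdh1 and Mdh2 were gained as higher.

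LPS raised 24 members and lowered 10, where 37.2% and 34.3% of all genes passed the test, and the members' median log2 change was 0.311 against 0.02. It raised 16 members by more than 1 on the log2 scale and lowered 2 by as much (background 15.6% and 13.4%). These counts rest on the deposited scaling. At the same total per library LPS values lay lower (Ogdh -0.185 in place of 0.311), which lowers the first count and raises the second. All 5 genes of lower glycolysis and 9 of 12 of upper glycolysis rose, while 7 of 11 in the TCA group fell. For 18 members every LPS library lay above the 12 other libraries, and for 6 (Pfkfb4, Idh2, Idh3a, Suclg1, Fh1 and Mdh1) every LPS library lay below them. The share of all genes separated in this way was not counted, so these counts describe the members only. Scaled to the same total, 21 members were higher and 22 lower, the median of all genes moved to -0.472, of the called members Hk3, Taldo1 and Ogdh changed sign, and all 9 uncalled members passed as lower. Without the 2 LPS libraries that hold 0 or 2.1 Ddx3y counts, 24 members were higher and 12 lower. With only the LPS libraries highest in Ddx3y the counts were also 24 and 12. Both choices were made after seeing the data. The libraries labelled LPS WT alone gave 26 and 10, and those labelled LPS KO alone 24 and 12. Between the labels LPS KO and LPS WT, limma called 0 of 43 members higher and 0 lower (0.0% and 0.0% of all genes), edgeR and DESeq2 called 0, and 0 had an unadjusted p under 0.05.

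Against the LPS libraries, confined WT cells were higher in 9 members (24.5% of all genes) and lower in 30 (29.8%), with a median of -0.402 against -0.014 over all genes. Confined KO cells were higher in 10 (30.3%) and lower in 25 (32.5%), with a median of -0.376 against 0.027. These 2 comparisons share the LPS libraries. Pfkfb3, at 0.59, and the monocarboxylate transporter Slc16a1, at 0.83, were higher in confined WT cells than after LPS, and the strongest difference the other way was Pfkl at -2.80. In confined KO cells the lowest were Slc2a6 at -2.86, Pfkl at -2.55 and Hk2 at -2.03, and the highest was Pfkfb4 at 1.01. With every library scaled to the same total the splits became 16 and 21 for WT (all-gene median 0.273) and 19 and 19 for KO (0.469). Of the called members, Cs, Tkt, Sucla2, Ogdh, Aco1, Rpia, Hk2 and Pdk3 changed sign under that scaling in the WT comparison, and Ogdh, Pdha1, Aldoc, Slc2a3 and Pkm in the KO comparison. Without the LPS libraries that hold 0 or 2.1 Ddx3y counts, the splits were 9 and 29 for WT and 10 and 23 for KO.

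**Figure D1:**
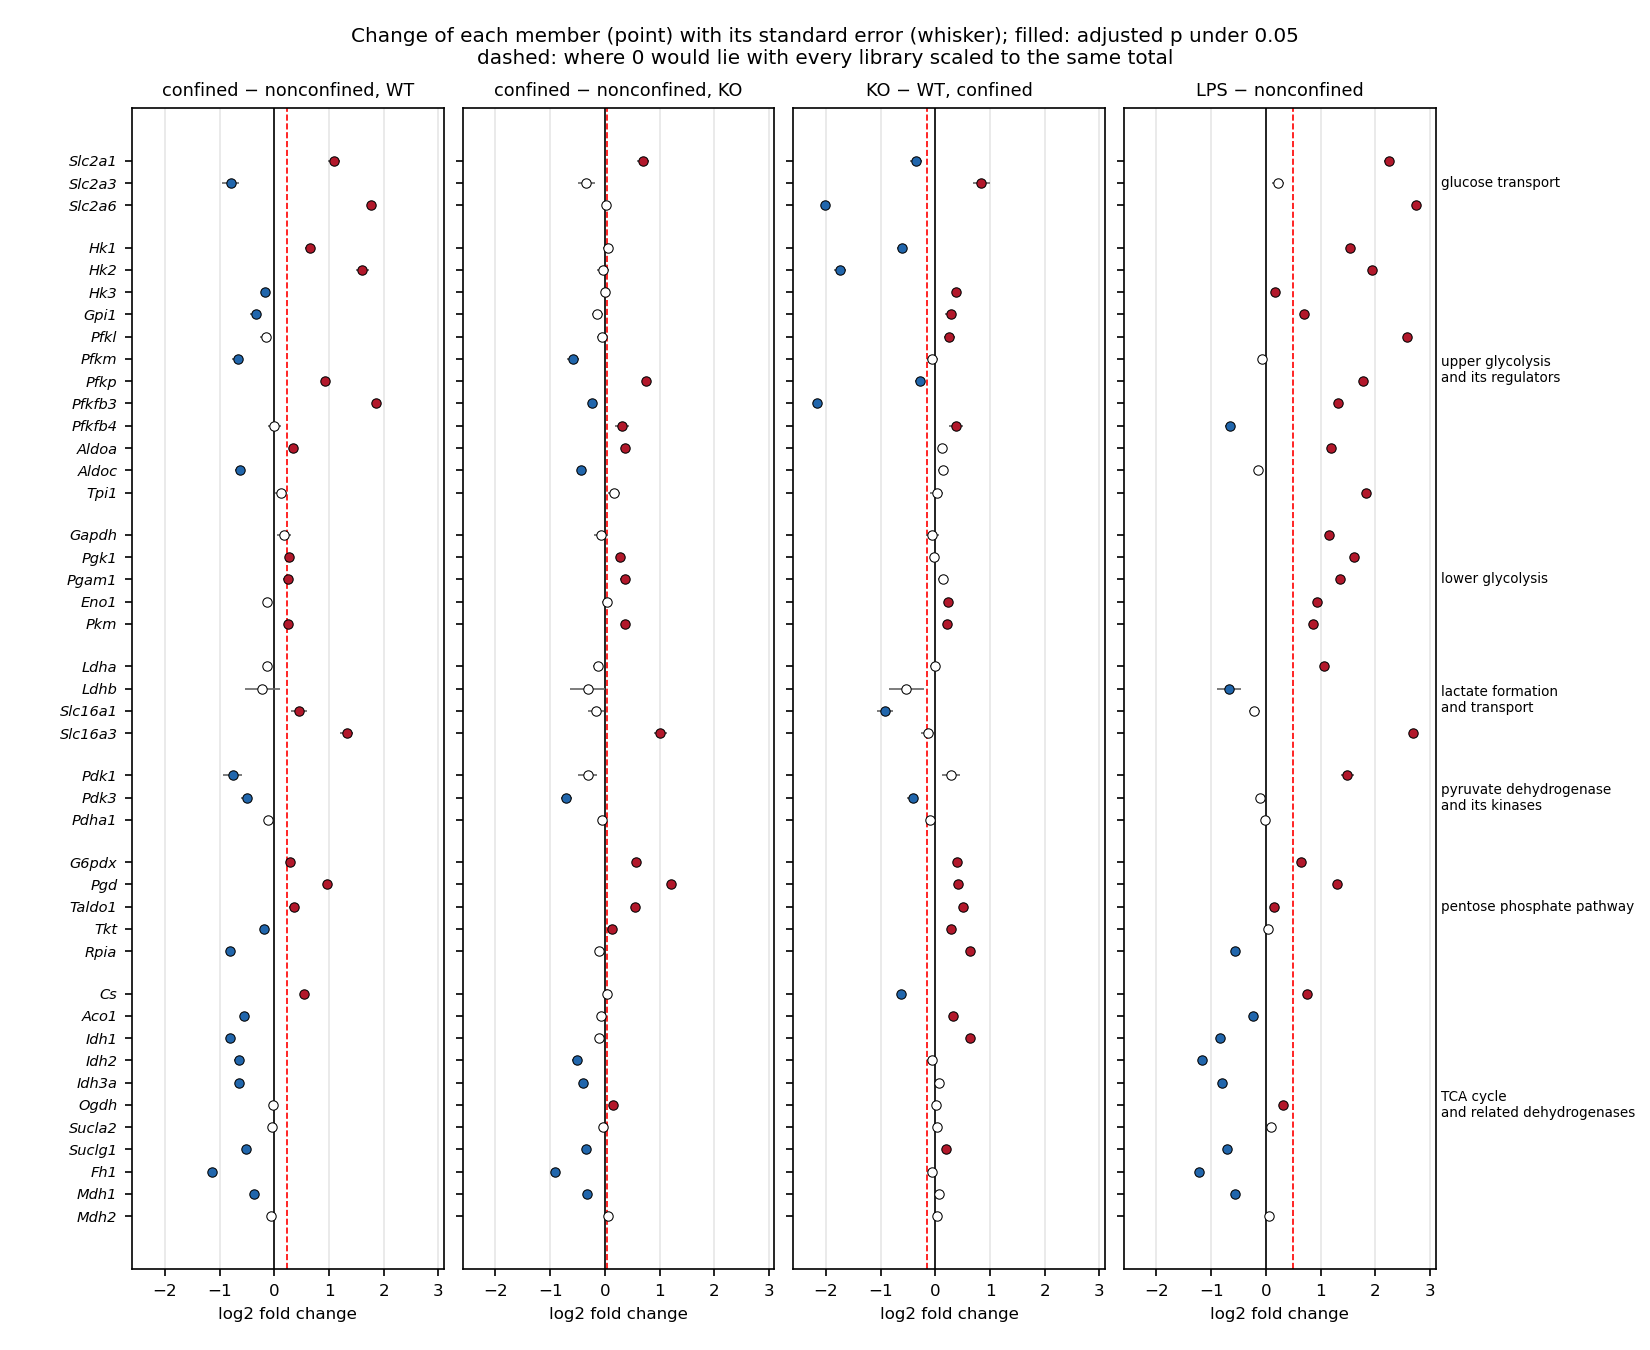
Log2 fold change (horizontal) of each of the 43 members, grouped by pathway segment, for confinement in WT and in KO cells, KO against WT in confined cells and LPS against nonconfined cells, 3 libraries per condition. The dashed line marks where 0 would lie with every library scaled to the same total. After LPS this flips the called members Hk3, Taldo1 and Ogdh and the uncalled members Tkt, Sucla2, Mdh2 and Slc2a3. Pfkfb3, Slc2a6 and Hk2 lie far right in WT confinement and near 0 in KO.

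Of the 3 glucose transporters, 2 rose and 1 fell with confinement in WT cells, and 1 rose in KO cells. Slc2a6 (identifier GSMG0031695, chromosome 2, 26911226 to 26918092 on the minus strand of GRCm39), a glucose transporter family protein found on lysosomes in macrophages, read 4702, 4076 and 4406 in nonconfined WT and 15546, 14398 and 15039.6 in confined WT libraries. In KO cells it read 3444, 3692 and 3703 without and 3745, 3548 and 3746 with confinement. Its log2 fold change with confinement was 1.77 (SE 0.05, adjusted p = 1.64e-17) in WT and 0.03 (SE 0.05, adjusted p = 0.7) in KO cells, and the difference between genotypes was -1.75 (SE 0.07, adjusted p = 2.79e-14). All 3 confined WT libraries lay above all nonconfined ones, whereas confined and nonconfined KO libraries overlapped. Confined KO against confined WT came to -2.03 (SE 0.05, adjusted p = 2.14e-18). Under the labels LPS WT and LPS KO it read 27845, 27158 and 25866 and 26829.7, 25815 and 26953, the highest levels of the series, with a log2 fold change of 2.75 (SE 0.04, adjusted p = 4.12e-24). Slc2a1, the widely expressed transporter GLUT1, rose with confinement in both genotypes, by 1.09 in WT and 0.70 in KO, and by 2.25 after LPS; its lower level in confined KO than confined WT cells (-0.36) no longer passed at the same total per library. Slc2a3, the transporter GLUT3, fell in confined WT cells (-0.79, SE 0.16, adjusted p = 0.000163) and did not pass in KO cells (-0.34) or after LPS (0.23, turning to a called -0.27 at the same total per library). In confined cells its KO level exceeded the WT level by 0.84. Per kb of transcript, Slc2a6 made up 74.1% of the 3 transporters in nonconfined WT, 84.2% in confined WT, 68.7% in nonconfined KO and 60.9% in confined KO cells. Merged exons in place of the canonical transcript as length gave 61.5%, 73.6%, 55.4% and 45.6%.

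**Figure D2:**
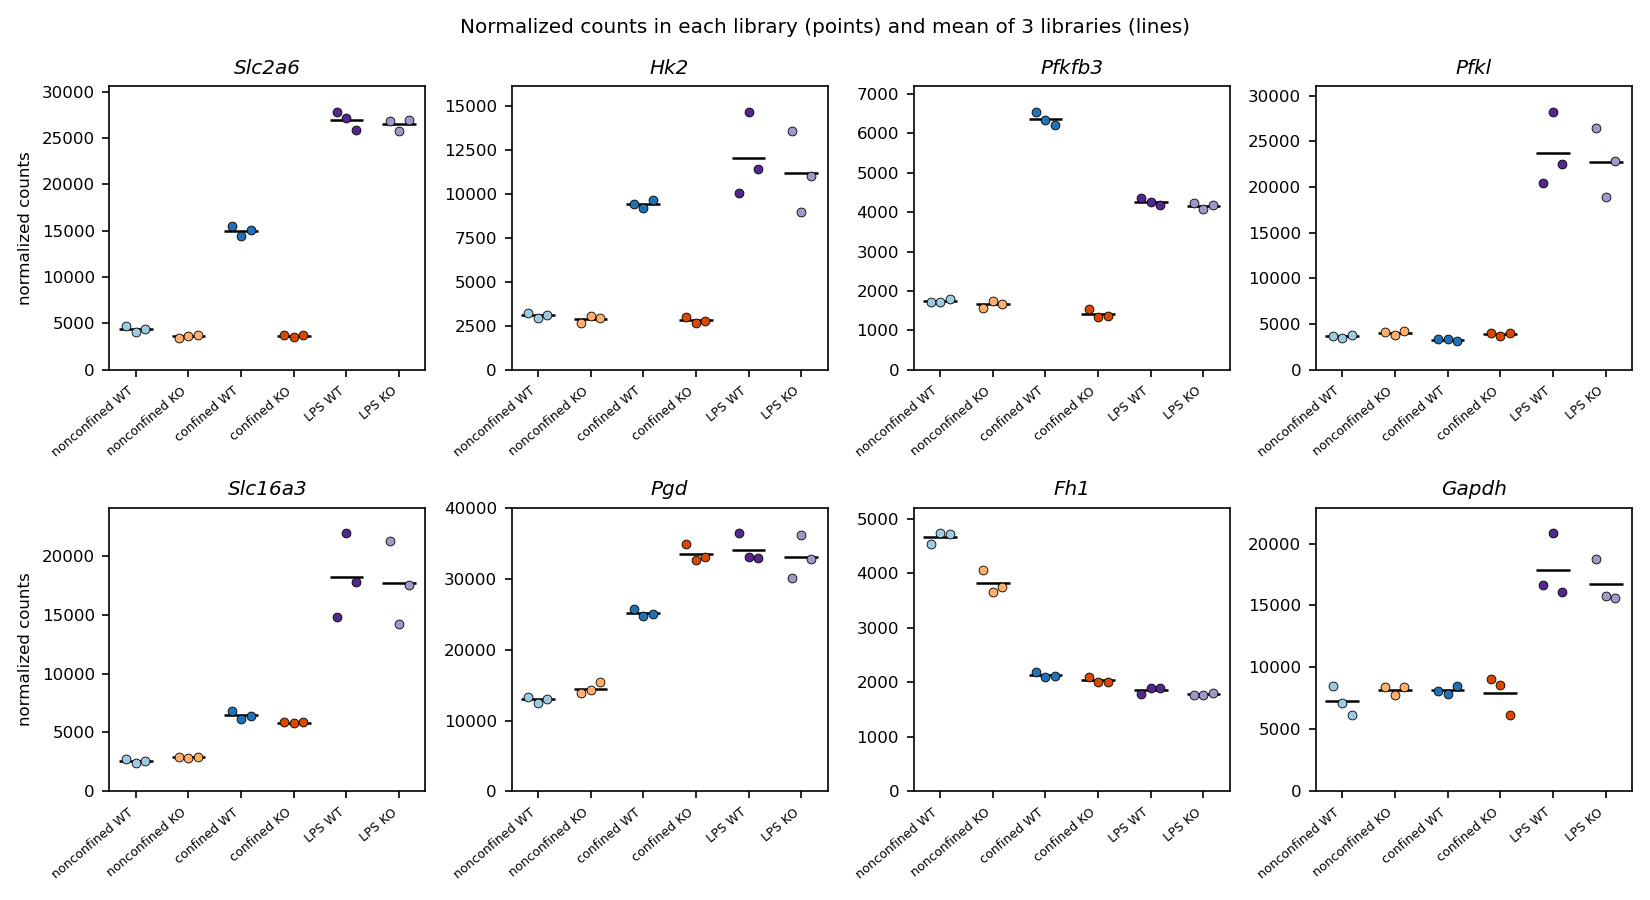
Normalized counts (vertical) of Slc2a6, Hk2, Pfkfb3, Pfkl, Slc16a3, Pgd, Fh1 and Gapdh in each of the 18 libraries, by condition; each point is a library. The first 3 genes are high in confined WT and LPS libraries and low in confined KO libraries; the sign of the Gapdh change in confined WT cells flips from 0.18 to -0.05 with every library scaled to the same total.

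At the entry into glycolysis, hexokinases phosphorylate glucose. Hk2 (identifier GSMG0046440, chromosome 6, 82699740 to 82751469 on the minus strand), the inducible mitochondria-bound form, read 3199, 2931 and 3126 in nonconfined WT and 9402, 9222 and 9634 in confined WT libraries. KO libraries held 2640.5, 3050.5 and 2950.3 without and 2977, 2672 and 2789 with confinement. The log2 fold change with confinement was 1.61 (SE 0.12, adjusted p = 1.23e-10) in WT and -0.03 (SE 0.12, adjusted p = 0.84) in KO cells, with a genotype difference of -1.64 (SE 0.17, adjusted p = 8.54e-08) and a KO against WT value in confined cells of -1.75 (SE 0.12, adjusted p = 6.53e-11). All 3 confined WT libraries lay above the 9 other libraries without LPS, while confined and nonconfined KO libraries overlapped. LPS libraries labelled WT read 10054, 14662 and 11432 and those labelled KO 13580.3, 8981 and 11011, a log2 fold change of 1.94 (SE 0.08, adjusted p = 3.87e-15). Hk1, the housekeeping form, rose by 0.65 in confined WT cells, read 0.06 without passing in KO cells, and rose by 1.54 after LPS. Hk3, typical of myeloid cells, was -0.16 in confined WT cells, which passed, and -0.001 in KO cells, which did not; the LPS value of 0.16 turned to -0.34 when libraries were scaled to the same total. Per kb, the Hk2 share of the 3 hexokinases went from 10.0% to 22.0% with confinement in WT cells and from 8.83% to 8.5% in KO cells, while the Hk3 share went from 47.8% to 30.6% and from 52.0% to 51.2%. These levels depend on the length used: with merged exons the Hk2 share went from 15.3% to 32.3% in WT and from 13.4% to 13.0% in KO cells.

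Phosphofructokinase commits sugar to glycolysis, and fructose 2,6-bisphosphate activates it. Pfkfb3 (identifier GSMG0031525, chromosome 2, 11476244 to 11558888 on the minus strand), which makes that activator and had the largest genotype difference of the 43 members, read 1708, 1726 and 1794 in nonconfined WT and 6544, 6331 and 6201 in confined WT libraries. In KO cells it read 1558, 1734 and 1679.9 without and 1539, 1345 and 1369 with confinement. With confinement it changed by 1.87 (SE 0.05, adjusted p = 1.6e-17) in WT and by -0.23 (SE 0.05, adjusted p = 0.00141) in KO cells, with a difference of -2.09 (SE 0.08, adjusted p = 2.73e-15); in confined cells KO against WT was -2.17 (SE 0.05, adjusted p = 1.53e-18). The directions were thus opposite in the 2 genotypes with no overlap between confined and nonconfined libraries in either, and confined WT libraries exceeded even the LPS libraries, which read 4363, 4245 and 4189 (labelled WT) and 4225, 4084 and 4174 (labelled KO). Pfkfb4, a related enzyme, showed another pattern: 0.00 in confined WT cells, which did not pass, 0.32 in confined KO cells, which did but not under scaling to the same total, and -0.66 after LPS, a fall. Pfkl (identifier GSMG0006070, chromosome 10, 77818084 to 77845922 on the minus strand), the liver-type phosphofructokinase, read 3737, 3524 and 3757 in nonconfined WT, 4126, 3806 and 4260.5 in nonconfined KO, 3405, 3331 and 3159 in confined WT and 3984, 3741 and 4068 in confined KO libraries. Neither confinement comparison passed for it (-0.16 and -0.05), although the WT value became a called -0.38 at the same total per library. Its level in confined KO exceeded confined WT by 0.25, a call lost under TMM scaling. LPS raised it to 20462, 28228 and 22558 and 26498, 18932 and 22804 under the labels WT and KO, a log2 fold change of 2.58 (SE 0.07, adjusted p = 1.45e-18). The platelet form Pfkp rose in confined WT (0.93) and KO cells (0.75) and after LPS (1.77), while the muscle form Pfkm fell with confinement (-0.66 and -0.58) and after LPS gave -0.08, which did not pass, or a called -0.57 at the same total per library.

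**Figure D3:**
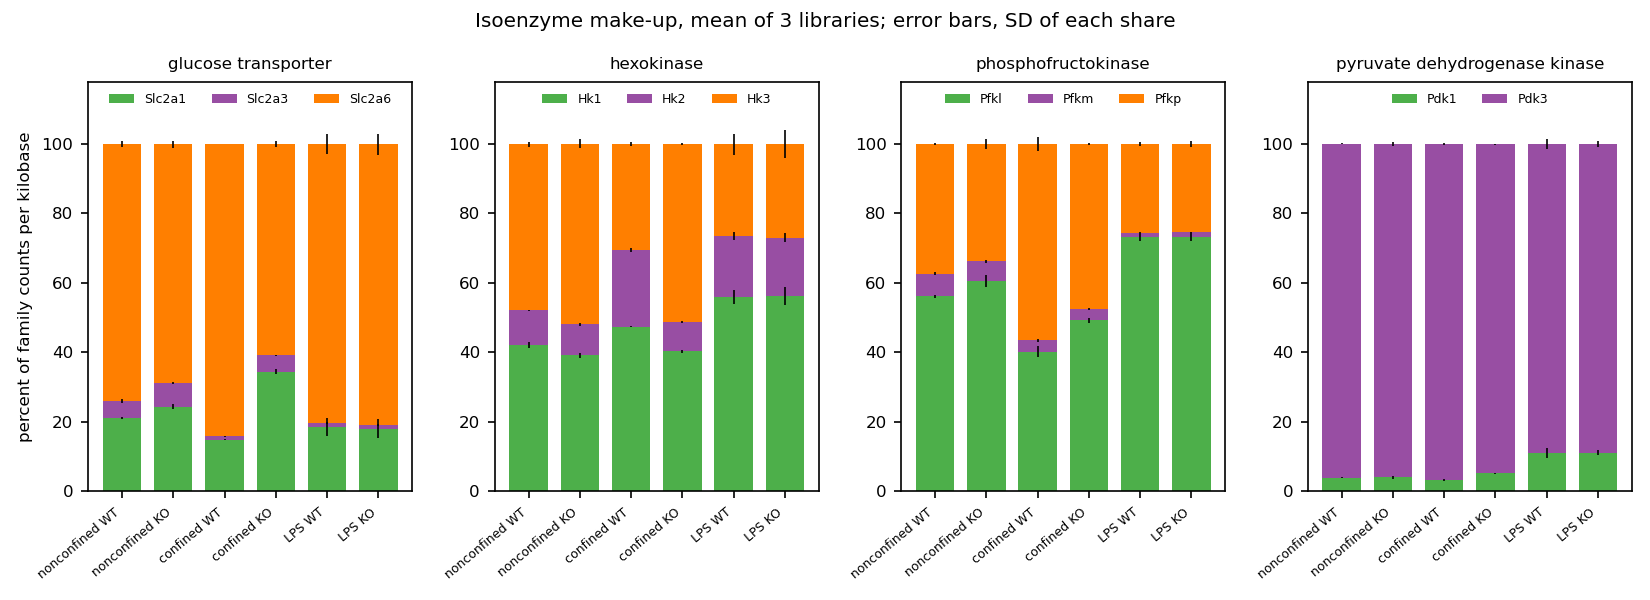
Share in percent (vertical) of each gene in its isoenzyme family per kb of canonical transcript, as bars by condition with the SD over 3 libraries, for glucose transporters, hexokinases, phosphofructokinases and pyruvate dehydrogenase kinases. Shares do not depend on library scaling; the Hk2 share rises from 10.0% to 22.0% in confined WT cells and the Pfkl share is 73.1% in libraries labelled LPS WT.

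The rest of upper glycolysis comprises the aldolases Aldoa and Aldoc and the isomerases Gpi1 and Tpi1. Aldoa, the main aldolase (its share per kb of the pair with Aldoc ran from 97.2% to 98.9%), rose by 0.35 in WT and 0.38 in KO cells and by 1.18 after LPS. Aldoc fell with confinement, at -0.63 and -0.43, and did not pass after LPS at -0.14, but did at -0.64 with the same total per library and at -0.19 with TMM scaling. Gpi1, the glucose 6-phosphate isomerase, fell in confined WT cells (-0.34), did not pass in KO cells (-0.14) and rose after LPS (0.69). Tpi1, the triose phosphate isomerase, did not pass with confinement (0.12 and 0.17) and rose by 1.84 after LPS. Of the 12 genes, 5 rose and 4 fell with confinement in WT, 3 rose and 3 fell in KO cells, and 9 rose and 1 fell after LPS. In confined cells 4 were higher in KO than WT (Pfkfb4 0.38, Hk3 0.37, Gpi1 0.28 and Pfkl) and 4 lower (Pfkfb3, Hk2, Hk1 at -0.61 and Pfkp at -0.29, the last lost under scaling to the same total).

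Lower glycolysis turns triose phosphates into pyruvate and makes ATP. Gapdh (identifier GSMG0062564, chromosome 6, 125135289 to 125143518 on the minus strand), often used as a reference gene, read 8458, 7150.0 and 6171 in nonconfined WT, 8385, 7789.7 and 8438 in nonconfined KO, 8100.5, 7815 and 8532 in confined WT and 9039, 8568 and 6194 in confined KO libraries. Confinement gave 0.18 (SE 0.12, adjusted p = 0.228) in WT and -0.07 (SE 0.12, adjusted p = 0.687) in KO cells, neither of which passed; the WT value turned to -0.05 with libraries scaled to the same total, and the KO value turned to 0.10 without confined KO replicate 3. After LPS it read 16628, 20825 and 16066 and 18757, 15757 and 15580.0 under the labels WT and KO, a rise of 1.16 (SE 0.09, adjusted p = 7.16e-11), and each LPS library lay above all 12 others. Gapdh has 47 near-identical copies in the genome, by at least 95% identity over at least 300 bases, of 63 such copies for 8 members, so reads of its transcript can be counted elsewhere. A gene without a symbol over one copy, on chromosome 2 from 28823442 to 28824694, held 12979, 18368 and 24602 counts in nonconfined WT and 18747, 9803 and 34078 in confined KO libraries, and its confinement values of -0.30 in WT (adjusted p = 0.408) and 0.33 in KO cells (adjusted p = 0.382) ran opposite to those of Gapdh. With the genes over copies added in, the log2 ratio of mean counts for Gapdh went from 0.17 to -0.18 in confined WT cells, from -0.05 to 0.33 in KO cells and from 1.16 to 1.085 after LPS, so its direction with confinement is uncertain. The same sum moved Pgam1 (4 copies) from 0.24 to 0.23 in WT and from 0.375 to 0.40 in KO cells, and Eno1 (4 copies) from -0.13 to -0.115 and from 0.03 to 0.05. Genes over the 4 copies of Pgk1 held 0.117% as many counts as Pgk1, no gene of the table lay over the single copies of Gpi1, Tpi1, Pkm and Ldhb, and 35 members have no such copy.

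Pgk1, the phosphoglycerate kinase, rose by 0.28 in WT and 0.28 in KO cells, Pgam1, the mutase, by 0.24 and 0.38, and Pkm, the pyruvate kinase, by 0.26 and 0.37. The 3 WT calls were lost with libraries scaled to the same total. Eno1, the enolase, did not pass in either genotype (-0.13 and 0.03), but its WT value became a called -0.35 under that scaling. In confined cells Eno1 (0.23) and Pkm (0.22) were higher in KO than WT. LPS raised all 5 genes of lower glycolysis, among them Pgk1 by 1.60, Pgam1 by 1.35, Eno1 by 0.93 and Pkm by 0.86. Per kb of canonical transcript Pkm was the most abundant member in nonconfined and confined cells, with a mean level of 25413 counts in nonconfined WT, and Ldha in the LPS libraries, with 52116 under the label WT. These ranks depend on the length used. Merged exons span 13417 bases for Pkm, 4738 for Ldha and 2123 for Pgam1. With them as length, Pkm lies below Ldha in nonconfined and confined cells. Ldha then lies below Pgam1 in the LPS libraries.

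Of the 4 genes of lactate formation and transport, 2 rose with confinement in WT and 1 in KO cells. Slc16a3 (identifier GSMG0008715, chromosome 11, 120838846 to 120851694 on the plus strand), the lactate exporter MCT4, read 2769, 2404 and 2564 in nonconfined WT and 6784, 6164 and 6427 in confined WT libraries. KO libraries held 2943, 2857 and 2873 without and 5876, 5794 and 5862 with confinement. It rose in both genotypes, by 1.33 (SE 0.11, adjusted p = 2.07e-09) in WT and 1.02 (SE 0.11, adjusted p = 2.44e-07) in KO cells, and its genotype difference did not pass (-0.31, SE 0.16, adjusted p = 0.174). LPS libraries reached 14787, 21928 and 17811 under the label WT and 21266, 14222 and 17518 under the label KO, a log2 fold change of 2.696 (SE 0.08, adjusted p = 7.79e-18), so the confined libraries lay between the nonconfined and the LPS libraries without overlap. The LPS libraries with 0 or 2.1 Ddx3y counts held the highest Slc16a3, Hk2 and Pfkl counts under each label. They also held the lowest eosinophil marker sums (25686 and 25614). The part of eosinophils in the counts was not tested. After LPS, Slc16a1, the transporter MCT1, gave -0.21, which did not pass, but did at -0.71 with the same total per library and at -0.26 with TMM scaling. It rose in confined WT cells (0.46, SE 0.15, adjusted p = 0.0106), a call lost under scaling to the same total, did not pass in KO cells (-0.15), and was lower in confined KO than confined WT cells (-0.93, SE 0.15, adjusted p = 2.74e-05). Ldha, the main lactate dehydrogenase subunit (99.9% of the pair with Ldhb per kb in nonconfined WT cells on average), did not pass with confinement (-0.13 and -0.13), except for a called -0.35 in WT at the same total per library, and rose by 1.06 after LPS. Ldhb, the least abundant member per kb, gave -0.22 and -0.31 with confinement, neither passing, and fell after LPS (-0.68).

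Pyruvate dehydrogenase links glycolysis to the TCA cycle, and its kinases inhibit it. The kinase Pdk1 fell in confined WT cells (-0.76, SE 0.17, adjusted p = 0.000509), did not pass in KO cells (-0.32) and rose after LPS (1.49, SE 0.12, adjusted p = 2.14e-10), when each LPS library lay above the 12 others. Pdk3 fell in both genotypes (-0.50 and -0.70), was lower in confined KO than confined WT cells (-0.42) and gave -0.12 after LPS without passing, but passed at -0.61 with the same total per library and at -0.16 with TMM scaling. Pdha1, the catalytic subunit gene on the X chromosome, did not pass with confinement (-0.12 and -0.05) or LPS (-0.01). At the same total per library it passed as lower in confined WT cells (-0.35) and after LPS (-0.51).

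Among the members, the pentose phosphate pathway was the segment in which confined KO cells exceeded confined WT cells in all 5 genes. Outside the members, Rpe of the same pathway went the other way. Its mean was 2990 in confined KO and 3752 in confined WT libraries. H6pd (2479 and 1952) and Pgls (1697 and 1511) had the higher mean in confined KO libraries. Pgd (identifier GSMG0039724, chromosome 4, 149233246 to 149251228 on the minus strand), the 6-phosphogluconate dehydrogenase that makes NADPH, read 13334, 12532 and 13061 in nonconfined WT and 25794, 24703 and 25012 in confined WT libraries. KO libraries held 13866, 14267 and 15375 without and 34913, 32618 and 33124 with confinement. It rose by 0.96 (SE 0.06, adjusted p = 5.63e-12) in WT and 1.21 (SE 0.06, adjusted p = 3.36e-13) in KO cells, with a genotype difference of 0.26 (SE 0.08, adjusted p = 0.0241) that was lost under TMM scaling, and confined KO exceeded confined WT by 0.41 (SE 0.06, adjusted p = 5.06e-06) with no overlap. LPS libraries read 36457, 33059 and 32956 and 30205, 36153 and 32799.6 under the labels WT and KO, with a log2 fold change over nonconfined cells of 1.29 (SE 0.04, adjusted p = 1.89e-17). Confined KO against LPS came to 0.0 and did not pass, but was a called 0.44 at the same total per library. G6pdx, the X-linked glucose 6-phosphate dehydrogenase that opens the pathway, rose by 0.28 in WT and 0.58 in KO cells, and transaldolase Taldo1 by 0.35 and 0.56; the WT calls of both were lost under scaling to the same total. Transketolase Tkt fell in WT (-0.18) and rose in KO cells (0.13), and the ribose 5-phosphate isomerase Rpia fell in WT (-0.80) and did not pass in KO cells (-0.11), with genotype differences of 0.31 and 0.69. After LPS, G6pdx (0.64) rose and Rpia (-0.56) fell, Tkt (0.04) did not pass and Taldo1 (0.15) rose. At the same total per library Tkt turned to a called -0.46 and Taldo1 to -0.34, and the Taldo1 call was lost under TMM scaling. The 5 genes held 0.189, 0.18 and 0.181% of all counts in nonconfined WT, 0.195, 0.192 and 0.193% in confined WT, 0.192, 0.191 and 0.199% in nonconfined KO and 0.291, 0.283 and 0.279% in confined KO libraries, beside the neutrophil marker sums above, which were also higher in confined KO than confined WT libraries. Nonconfined KO libraries held neutrophil sums of 332300.0 to 369633, against 330068 to 346079 in confined KO, at shares of 0.191 to 0.199%. The part of neutrophils in these shares was not tested.

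**Figure D4:**
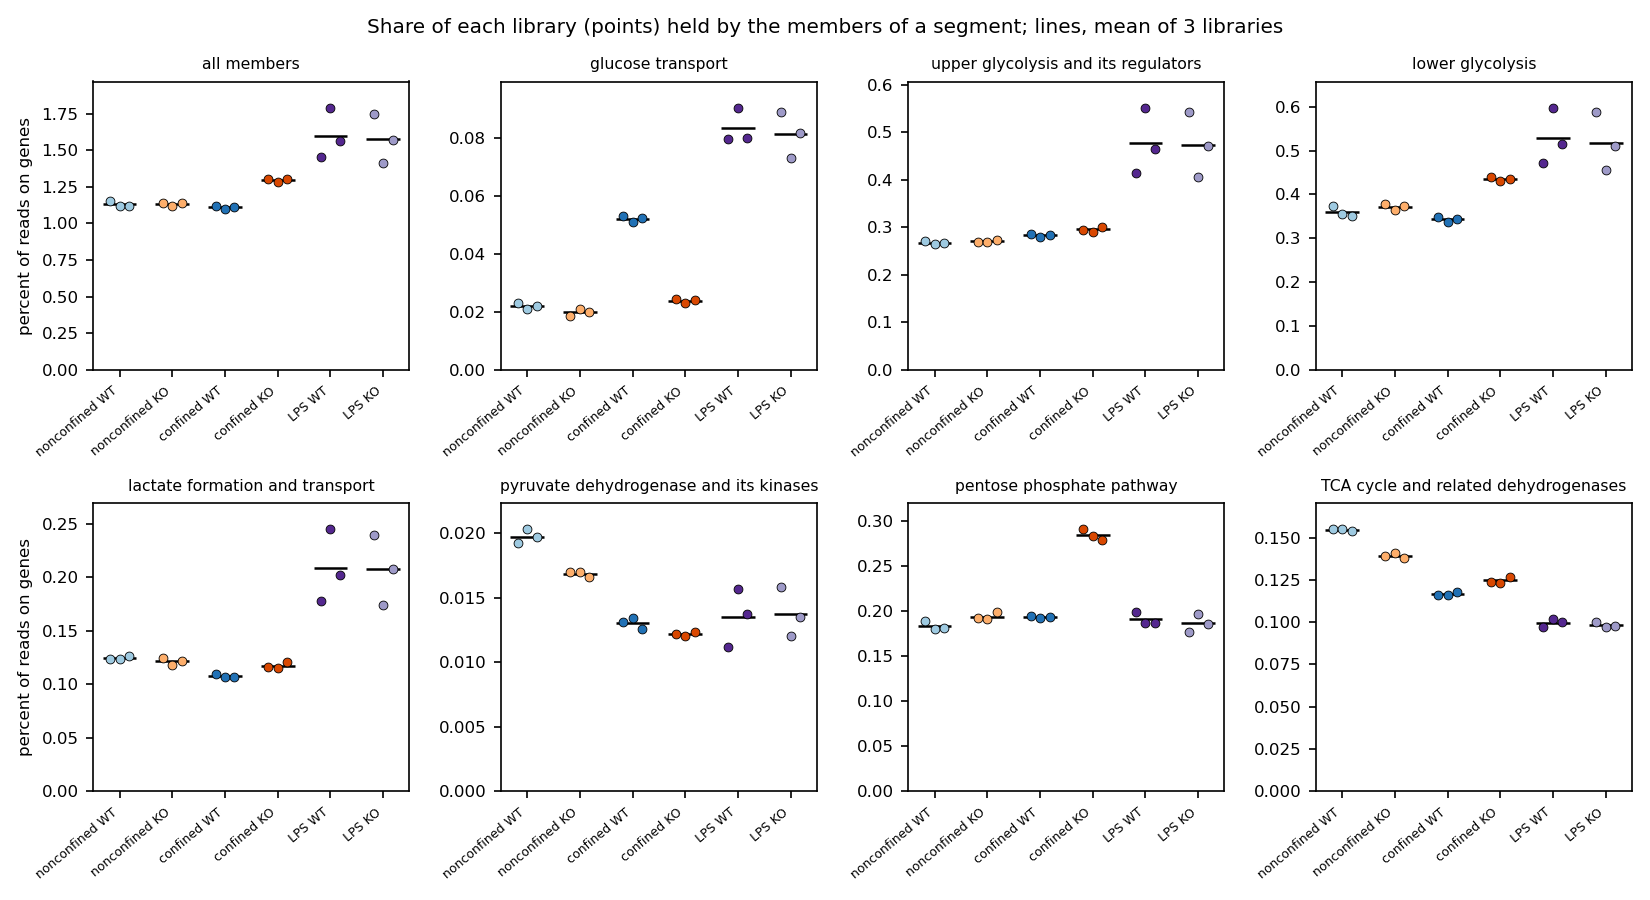
Share of each library's counts in percent (vertical) held by each pathway segment and by all 43 members, by condition; each point is a library. Shares do not depend on library scaling; the pentose phosphate share is highest in the 3 confined KO libraries and the TCA share is highest in the nonconfined WT libraries.

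In the TCA group more members fell than rose with confinement: 7 fell and 1 rose in WT, and 5 fell and 1 rose in KO cells. Fh1 (identifier GSMG0002804, chromosome 1, 175425290 to 175453205 on the minus strand), the fumarase, read 4543, 4730.0 and 4711 in nonconfined WT and 2186, 2097 and 2108 in confined WT libraries. In KO cells it read 4053, 3655 and 3746 without and 2090.1, 2008 and 1999 with confinement. It fell with confinement at -1.13 (SE 0.05, adjusted p = 1.3e-14) in WT and -0.91 (SE 0.05, adjusted p = 1.71e-12) in KO cells, with a difference of 0.22 (SE 0.07, adjusted p = 0.0183) that was lost under TMM scaling. LPS libraries read 1780.0, 1902 and 1895 and 1759, 1772 and 1793 under the labels WT and KO, below all other libraries, with a log2 fold change of -1.22 (SE 0.03, adjusted p = 1.99e-18). Mitochondrial Idh2 (-0.65 and -0.51) and Idh3a (-0.65 and -0.39), the isocitrate dehydrogenases, fell in both genotypes, as did Suclg1 of succinyl-CoA ligase (-0.52 and -0.34) and cytosolic malate dehydrogenase Mdh1 (-0.37 and -0.33). Cytosolic Idh1 (-0.80) and the cytosolic aconitase Aco1 (-0.55) fell in WT, while their KO values of -0.10 and -0.06 did not pass, and their genotype differences of 0.70 and 0.49 passed. Citrate synthase Cs rose in confined WT cells (0.54, SE 0.05, adjusted p = 1.61e-09) and gave 0.05 in KO cells without passing, with a genotype difference of -0.49.

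Ogdh, of the 2-oxoglutarate dehydrogenase complex, gave -0.03 in confined WT cells, which did not pass, and 0.15 in KO cells, which did. Sucla2, of succinyl-CoA ligase (-0.04 and -0.04), and mitochondrial Mdh2 (-0.05 and 0.05) did not pass in either genotype. At the same total per library, Ogdh (-0.25), Sucla2 (-0.26) and Mdh2 (-0.28) also passed as lower in confined WT cells, which makes 10 of the 11 genes. After LPS, Cs (0.75) and Ogdh (0.31) rose, the latter turning to -0.19 under scaling to the same total. Fh1, Idh2 (-1.18), Idh1 (-0.83), Idh3a (-0.81), Suclg1 (-0.71), Mdh1 (-0.57) and Aco1 (-0.24) fell, and Sucla2 (0.09) and Mdh2 (0.06) did not pass but turned to called values of -0.41 and -0.44 under that scaling. The 11 genes held 0.155, 0.155 and 0.154% of counts in nonconfined WT, 0.116, 0.116 and 0.118% in confined WT, 0.139, 0.141 and 0.138% in nonconfined KO and 0.124, 0.123 and 0.127% in confined KO libraries, and 0.0972, 0.102 and 0.0999% and 0.1, 0.0972 and 0.098% under the labels LPS WT and LPS KO.

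Of 46 further genes of these pathways, 42 were tested. With confinement 11 rose and 15 fell in WT and 11 rose and 11 fell in KO cells, and after LPS 12 rose and 20 fell, where the shares of all genes were 28.2% and 28.4%, 22.8% and 23.4%, and 37.2% and 34.3%. Named after their values were seen, the NADPH-forming malic enzyme Me1 rose by 2.29 in WT and 2.41 in KO cells. Pyruvate carboxylase Pcx rose by 1.16 and 1.06, and H6pd, the hexose 6-phosphate dehydrogenase of the endoplasmic reticulum, by 0.41 and 0.89. Rpe, of the pentose phosphate pathway, went from a mean of 3701 to 3752 with confinement in WT and from 3919 to 2990 in KO cells. Pgls, of the same pathway, went from 2261 to 1511 and from 2384 to 1697. The enolase Eno3 (-1.36 and -1.38), the ADP-dependent glucokinase Adpgk (-1.15 and -0.49) and the malic enzyme Me2 (-0.91 and -0.56) fell in both genotypes. Of 6 regulators known to act on these genes (Hif1a, Myc, Mlxip, Mlx, Txnip and Arrdc4), 3 rose and 2 fell with confinement in each genotype, and 4 rose and 2 fell after LPS. Hif1a, which encodes the oxygen-sensitive subunit of a transcription factor for many glycolytic genes, read 6092, 6377 and 6395 in nonconfined WT and 20887, 20343 and 20347 in confined WT libraries. KO libraries held 5389.9, 5720.3 and 5382 without and 8939, 8517 and 8902 with confinement. Its log2 fold change was 1.71 (SE 0.06, adjusted p = 6.58e-16) in WT and 0.68 (SE 0.06, adjusted p = 7.94e-09) in KO cells, with a difference of -1.03 (SE 0.09, adjusted p = 4.03e-09), and after LPS 1.14. Myc fell with confinement, at -1.71 in WT and -0.82 in KO cells, and after LPS, at -1.48.

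Promoter sequences were read from RefSeq (GRCm38.p6, an older build than the GRCm39 of the gene positions above) as the 250 bases before each transcription start, with 61 promoters for 41 of the 43 members. The pentamers ACGTG and GCGTG, the core of the element that hypoxia-inducible factors bind, were counted on both strands, where they read CACGT and CACGC on the opposite strand. ACGTG lay in 23 of 61 promoters (37.7%, against 16.6% of 32851 promoters of all genes), GCGTG in 36 (59.0% against 28.2%) and either in 49 (80.3% against 38.6%). The palindrome CACGTG, which overlaps ACGTG, lay in 7 (11.5% against 6.02%). A match is a description of the sequence and not a sign of binding. The comparison is with promoters of all genes, expressed or not. No share was taken over promoters of expressed genes or of like base composition, and both pentamers hold a CG. Whether the members exceed such promoters was not tested. Of the 9 promoters of Slc2a6, Hk2, Pfkfb3, Pfkl, Slc16a3, Pgd and Fh1, the 4 with 2 or more matches were picked after the matches were seen, to show how they lie. Of the 5 others, those of Fh1 and Pfkl, 1 of 2 of Pfkfb3 and 1 of 2 of Pgd had 1 match, and the second of Pgd had 0. The 4 are in lower case with the pentamers in capitals: Slc2a6 (chr2:27027999-27028248, minus strand), Hk2 (chr6:82774455-82774704, minus), Pfkfb3 (chr2:11502091-11502340, minus) and Slc16a3 (chr11:120948817-120949066, plus). Slc2a6 carried 4 GCGTG matches, Hk2 and Slc16a3 2 ACGTG matches each, and this promoter of Pfkfb3 a CACGTG and a GCGTG.

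Slc2a6 promoter: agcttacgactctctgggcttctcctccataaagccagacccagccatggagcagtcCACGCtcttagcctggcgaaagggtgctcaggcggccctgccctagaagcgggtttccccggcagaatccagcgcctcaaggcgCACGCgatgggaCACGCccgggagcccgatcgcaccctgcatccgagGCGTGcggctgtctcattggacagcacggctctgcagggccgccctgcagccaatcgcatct

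Hk2 promoter: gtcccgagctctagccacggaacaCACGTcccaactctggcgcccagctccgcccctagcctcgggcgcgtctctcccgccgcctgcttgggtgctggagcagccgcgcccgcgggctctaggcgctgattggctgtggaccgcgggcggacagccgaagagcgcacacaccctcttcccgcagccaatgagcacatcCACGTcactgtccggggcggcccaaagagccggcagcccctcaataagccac

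Pfkfb3 promoter: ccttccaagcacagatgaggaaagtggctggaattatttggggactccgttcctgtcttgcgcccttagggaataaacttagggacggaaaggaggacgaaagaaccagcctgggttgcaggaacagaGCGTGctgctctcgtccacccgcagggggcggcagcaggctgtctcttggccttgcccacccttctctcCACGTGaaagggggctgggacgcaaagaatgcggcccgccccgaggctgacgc

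Slc16a3 promoter: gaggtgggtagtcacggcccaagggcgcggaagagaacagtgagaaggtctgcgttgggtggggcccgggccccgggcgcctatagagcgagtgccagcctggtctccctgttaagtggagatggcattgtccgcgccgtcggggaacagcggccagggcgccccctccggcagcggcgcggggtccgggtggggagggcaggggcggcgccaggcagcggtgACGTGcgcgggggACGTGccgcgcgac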

How the data were processed

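The authors deposited gene counts for 18 libraries of mouse dendritic cells, each divided by a DESeq2 size factor (unit: signal, not scaled for gene length). Per the labels, the authors mapped reads with STAR 2.7.5a on mm39 and counted them with featureCounts 1.5.0. Whole reads, to within 0.01, were recovered for 100% of the deposited values, and depth ran from 33027230 to 61300021 counted reads per library (median 40950397). Genes that reached 10 normalized counts in 3 or more libraries entered limma 3.58.1 (trend) on log2(normalized count + 1), in R 4.3.3, with 1 fit of 6 condition means and Benjamini-Hochberg adjustment within each comparison; calls took an adjusted p under 0.05. Adjusted p-values and SE in the text are from this fit. On simulated counts with changes in confined WT only, it recovered 100 of 100 absolute log2 changes of 1 and 93 of 100 of 0.5. Those counts had the same spread setting in every condition, so they do not test the fit under the wider spread of the LPS libraries. The 3 members with the largest called change in each of 5 comparisons, with Gapdh and Pla2g4a, have their counts per library printed. Members and gene lists were chosen with earlier results of these data known.

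Alternatives were other pseudocounts, filters and scalings (same total, TMM), a replicate block, a fit of the compared conditions only, edgeR 4.0.16, DESeq2 1.42.0, the thresholds in the study's Methods (fold change of 1.5 and unadjusted p of 0.05), and leaving out single libraries. Settings without the LPS libraries that hold 0 or 2.1 Ddx3y counts, or with only those highest in it, were added after seeing the data. Transcript lengths and positions came from GENCODE vM39 (GRCm39), genomic copies from blastn 2.17.0, and tables and figures from python 3.11.15, numpy 2.4.6, pandas 2.3.3 and matplotlib 3.10.9. No library was left out.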

Additional observations from a re-analysis of the deposited data

Results flagged for a closer look

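The change with confinement differed between KO and WT cells for 15 members, by the test of the difference itself. It was more positive in KO cells for 9 and more negative for 6, where 10.2% and 15.6% of all genes passed. At the same total per library the split was 23 and 5. Leaving out 1 library ended between 0 and 4 of the 15 calls, with 4 ended without confined WT replicate 2. The change was more negative in KO cells for Pfkfb3 (-2.09 on the log2 scale), Slc2a6 (-1.745), Hk2 (-1.64), Slc16a1 (-0.61), Hk1 (-0.59) and Cs (-0.49). The difference of Slc16a1 no longer passed with all libraries brought to the same total (-0.42, adjusted p = 0.137). It was more positive in KO cells for Idh1 (0.70), Rpia (0.69), Aco1 (0.485), Tkt (0.31), G6pdx (0.29), Idh3a (0.26), Pgd (0.255), Fh1 (0.22) and Ogdh (0.175). Under TMM scaling Fh1 (adjusted p = 0.0509), Pgd (adjusted p = 0.0539), Idh3a (adjusted p = 0.0679) and Ogdh (adjusted p = 0.0724) no longer passed. Genotype and donor sex cannot be told apart in these libraries.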

How the results depend on the processing

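The changes named by rule were those of Pfkfb3, Slc2a6 and Hk2 with confinement in WT, between genotypes in that response and between confined KO and WT cells, of Pgd, Slc16a3 and Fh1 with confinement in KO, of Slc2a6, Slc16a3 and Pfkl after LPS, and of Gapdh. Of their 346 values under other settings, 343 kept the direction and the side of the threshold. The exceptions were all Gapdh with confinement: in WT cells -0.047 with all libraries brought to the same total, and a called 0.18 in a fit of the compared conditions only; in KO cells 0.10 without 1 library (range -0.17 to 0.10). The cause was not tested.

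Counts of called members moved with scaling. With each library at the same total, confinement in WT gave 10 higher, the genotype difference 23 more positive, KO against WT in confined cells 24 higher, LPS 22 lower, and confined WT and KO against LPS 16 and 19 higher; this scaling moved the median of all genes too. TMM scaling gave 5 more positive for the genotype difference, without Pgd, Fh1, Idh3a and Ogdh, and ended the call of Pfkl between confined KO and WT cells. A fit of the compared conditions only, with fewer libraries, gave 14 more positive for the genotype difference and 4 higher for KO against WT in nonconfined cells. It also gained 6 member calls for confinement in WT, 4 in KO and 4 for KO against WT in confined cells, with 0 lost in each. The main fit takes 1 spread over all 6 conditions, and some members varied more after LPS (Tpi1 SD 9290 in LPS WT, 158 in nonconfined WT). A member that did not pass with confinement in the main fit may thus pass in the other.

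The thresholds of the study's Methods ask for a fold change and so pass fewer members: 8 higher and 9 lower for confinement in WT, 4 and 2 in KO, 2 more positive for the genotype difference, 0 and 0 for KO against WT in nonconfined and 3 higher in confined cells, 5 higher and 17 lower for confined WT and 2 higher for confined KO against LPS. KO against WT in nonconfined cells also gave 3 lower with no filter or TMM scaling, and 0 to 2 higher and 2 to 5 lower with 1 library left out. Ldhb was not tested under the filter of 100 counts.

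The labels do not say that replicate numbers pair the libraries. In 0 of 15 pairs of conditions did all 3 same-numbered pairs correlate above 0.1 in their deviations from the group means (confined WT and KO came closest, at 0.34, 0.21 and 0.04), and 8 of 18 libraries correlated best with their own number. The replicate block gave 3 lower members for KO against WT in nonconfined cells where 5 passed without it; elsewhere it ended at most 2 calls, in confined WT against LPS, and gained 0.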
